A study of Mus musculus with 92 samples.

Results

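Ageing of the liver on the Control diet was followed in female HET3 mice by comparing liver RNA at 24 months of age with liver RNA at 6 months. The comparison used 16 of the 92 samples of the series, namely the 8 libraries whose titles mark them as old, female and Control and the 8 marked as young, female and Control. HET3 mice come from a cross of several inbred strains, so that animals of one group also differ in genotype. The series placed male and female mice on a Control, a Low Amino Acid or a Low Isoleucine diet. Control feeding began at 9 weeks of age in the animals killed at 6 months and at 6 months of age in the animals killed at 24 months, per the labels, whereas the series text gives 13 weeks on the diets for both. Time on the Control diet and age at its start therefore differed between the groups, or are not known, and cannot be told apart from age. All mice were housed at about 22 °C, fasted for 16 hours overnight and killed by cervical dislocation. The time of day of collection is not in the sources used here. In the titles, 3 libraries at 6 months (young 4, 5 and 6) share a number, 2 others (young 3 and 7) share another, and 2 libraries at 24 months (aged 4 and 6) share a further one. What that number stands for is not stated, so p-values measure the spread between these samples.

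The liver makes most plasma proteins, and after injury or infection hepatocytes (the main cells of the liver) switch on acute phase genes under signals such as interleukins released by macrophages. Hepatocytes also burn fatty acids during a fast, make and export bile acids, and clear drugs through cytochrome P450 enzymes. Many of these tasks follow a daily cycle set by the circadian clock, a loop in which Arntl and its partners activate Per, Cry and Nr1d genes that then repress them. Ageing livers are known for the gathering of immune cells, low-grade inflammation and a loss of some of these functions.

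The lines used held between 14286620 and 27556878 estimated counts per library. Values are CPM, counts scaled to a total of 1e+06 per library with TMM factors over the 16 libraries, and a set of 3 values gives the lowest, the median and the highest of 8 libraries. Alb, the gene of the main plasma protein, had 52337, 72531 and 110532 CPM at 24 months and 62829, 82003 and 131088 CPM at 6 months and was among the most abundant RNAs at both ages (log2 fold change -0.24, edgeR adjusted p = 0.518). The Y-linked gene Kdm5d was at most 0.51 CPM in these 16 libraries. Median rank correlation with the other libraries of the group was 0.945 to 0.964 at 24 months and 0.977 to 0.986 at 6 months. Libraries are called aged 1 to 8 and young 1 to 8, numbers that carry no order. On the first principal component, which held 35.2% of the variance, aged 1, 4, 5 and 7 stood farthest from the young libraries, and counts are also given without them. That set, like the pairs aged 1 and 4 and aged 1 and 5 left out below, was picked from these same values. Such fits also hold fewer libraries, so a lower count in them is a description and not a test. A list member enters a count of tested genes only if it passed the filter on low counts, and a member can pass through the age where it is high, so the list counts are descriptions.

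At an adjusted p under 0.05 in edgeR's quasi-likelihood test, 1297 of 11937 genes tested (10.9%) were higher at 24 months and 843 (7.06%) were lower. Every count of a gene list given below is to be read beside these shares. Every aged library lay above every young one for 77 genes (0.645%), and every aged library lay below every young one for 0.947% of genes. Without aged 1, 4, 5 and 7 the counts were 404 higher and 344 lower, and without aged 1 alone they were 866 and 559. One set of genes differed in all 8 aged livers, and another, led by acute phase and immune genes, was far higher in some aged livers and at young levels in others.

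The smallest p-value among higher genes belonged to Nebl, on chromosome 2 at 17343909 to 17731464 of the GRCm38 genome, which encodes nebulette, an actin-binding protein. Its values were 4.81, 9.18 and 16.9 CPM at 24 months and 0.613, 1.17 and 1.72 CPM at 6 months (log2 fold change 3.11, SE 0.31, edgeR adjusted p = 0.000129). All 8 aged livers were above all 8 young ones, and the SD of log2 CPM was 0.67 at 24 months and 0.54 at 6 months. Nxpe5, on chromosome 5 at 138225898 to 138253363, had 1.69, 4.28 and 10.8 CPM at 24 months and 0.0772, 0.456 and 1.04 CPM at 6 months (log2 fold change 3.37, SE 0.47, edgeR adjusted p = 0.00138). Dmrta1, on chromosome 4 at 89679436 to 89694772, a transcription factor gene of the DMRT family, had 3.41, 5.44 and 8.57 CPM at 24 months and 0.531, 1.19 and 2.93 CPM at 6 months (log2 fold change 1.97, SE 0.28, edgeR adjusted p = 0.00154). Both were also higher in every aged library than in any young one. Adcy1, an adenylate cyclase that makes cyclic AMP, spread far more widely among aged livers, with 3.35, 45.1 and 244 CPM at 24 months and 0.540, 1.06 and 2.29 CPM at 6 months (log2 fold change 5.89, SE 0.83, edgeR adjusted p = 0.00154). Aged 4 and aged 6 were lowest for it at 3.35 and 5.68 CPM, still above the highest young library. S100a4, a calcium-binding protein of motile and immune cells, had 0.814, 2.10 and 3.65 CPM at 24 months and 0.280, 0.423 and 0.613 CPM at 6 months (log2 fold change 2.28, SE 0.31, edgeR adjusted p = 0.00138). Olfr1029 had 3.74, 8.52 and 12.2 CPM at 24 months and 0.305, 0.648 and 2.36 CPM at 6 months (log2 fold change 3.19, SE 0.39, edgeR adjusted p = 0.000692), but olfactory receptor genes form a large family of similar sequences and the reads behind this value are uncertain.

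Among the lower genes, Foxo3, a transcription factor that insulin signalling keeps out of the nucleus, had 56.7, 66.0 and 85.97 CPM at 24 months and 108.4, 117.9 and 133 CPM at 6 months (log2 fold change -0.81, SE 0.10, edgeR adjusted p = 0.000692). Cipc, a repressor that binds the CLOCK protein, had 32.8, 41.2 and 54.2 CPM at 24 months and 67.2, 74.8 and 84.6 CPM at 6 months (log2 fold change -0.82, SE 0.10, edgeR adjusted p = 0.000692). For both, the highest aged liver was below the lowest young liver, and the SD of log2 CPM over aged livers was 0.24 and 0.26. Clmn, which encodes calmin, a membrane protein with actin-binding domains, had 103.1, 154 and 210.2 CPM at 24 months and 257, 346 and 400.1 CPM at 6 months (log2 fold change -1.11, SE 0.15, edgeR adjusted p = 0.00138). Tmtc2, an endoplasmic reticulum protein, had 9.92, 21.9 and 23.1 CPM at 24 months and 33.8, 43.6 and 52.0 CPM at 6 months (log2 fold change -1.20, SE 0.17, edgeR adjusted p = 0.00154), and Ttc7b fell as well (log2 fold change -0.80, SE 0.11, edgeR adjusted p = 0.00138). Serpine2, a secreted protease inhibitor, stood at low levels in both groups with 0.270, 0.494 and 0.969 CPM at 24 months and 1.36, 2.28 and 3.63 CPM at 6 months (log2 fold change -2.14, SE 0.28, edgeR adjusted p = 0.000784). Ccr3, the eotaxin receptor of eosinophils, had 0.0385, 0.503 and 1.16 CPM at 24 months and 1.97, 3.20 and 4.47 CPM at 6 months (log2 fold change -2.64, SE 0.42, edgeR adjusted p = 0.00277). None of these 7 genes overlapped between the age groups.

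**Figure D1:**
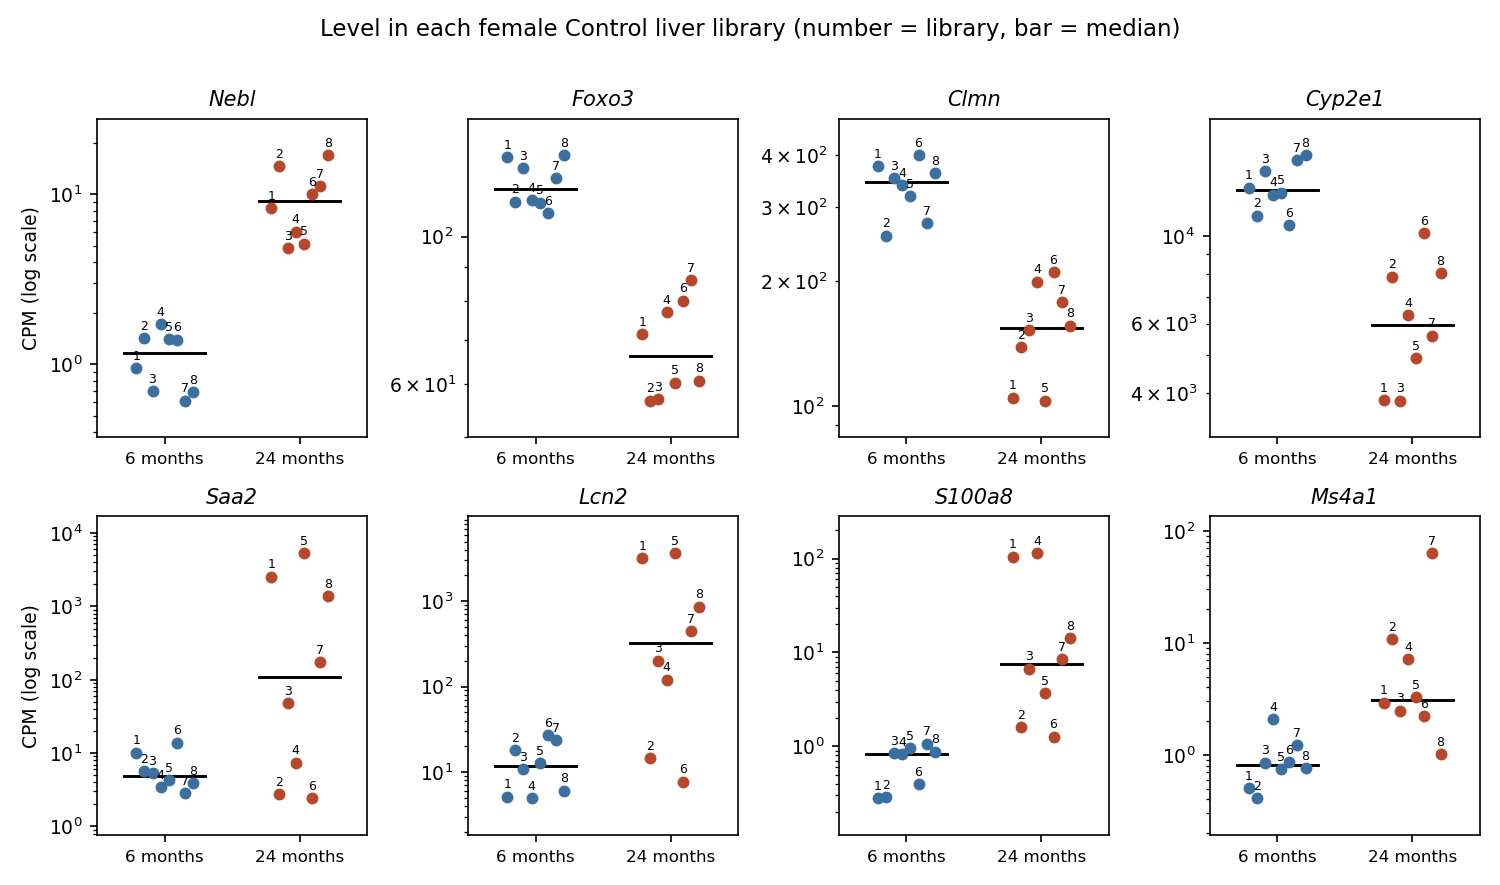
CPM (log scale) of 8 genes in each of the 8 libraries at 6 months and the 8 at 24 months; numbers mark libraries and bars mark medians. Nebl, Foxo3, Clmn and Cyp2e1 do not overlap between the ages. In aged 2 and 6 Saa2 lies below the young range and Lcn2 at young levels, whereas aged 5 holds 5344 and 3662 CPM.

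Acute phase genes, which code for plasma proteins that hepatocytes release in inflammation, were higher in most but not all aged livers. Of 28 genes listed, 25 were tested, and 20 were higher and 0 lower at 24 months, with a median log2 fold change of 1.72 against 0.02 over all genes tested. Saa2, a serum amyloid A protein, had 2.42, 110.3 and 5344 CPM at 24 months and 2.86, 4.83 and 13.9 CPM at 6 months (log2 fold change 7.59, SE 1.49, edgeR adjusted p = 0.00531). It was above every young liver in 5 aged livers and below every young liver in 2, aged 2 and aged 6. Because Saa2 and its neighbour Saa1 are near-identical, reads may have been shared between them. Lcn2, an iron-sequestering lipocalin, had 7.68, 325 and 3662 CPM at 24 months and 4.90, 11.7 and 26.9 CPM at 6 months (log2 fold change 6.30, SE 1.12, edgeR adjusted p = 0.00444). Saa3 had 2.71, 21.7 and 179 CPM at 24 months and 0.914, 2.04 and 3.72 CPM at 6 months (log2 fold change 4.34, SE 0.77, edgeR adjusted p = 0.00444). Hp, haptoglobin, which binds free haemoglobin, was already abundant in young livers, with 2995, 6085 and 18379 CPM at 24 months and 2069, 2485 and 3550.3 CPM at 6 months (log2 fold change 1.72, SE 0.38, edgeR adjusted p = 0.00766). The mean log2 CPM of the tested genes was 10.67 in aged 1 and 10.78 in aged 5, and 7.44 in aged 2 and 7.38 in aged 6, against 7.12 to 7.68 in young livers. Thus 6 of 8 aged livers were above the young range. The log2 fold change of Saa2 was 6.58 without aged 5, that of Lcn2 5.68 without the same liver, and that of Saa3 3.37 without aged 1. Without aged 1 and 5, 14 of the list were higher, and without aged 1, 4, 5 and 7, 10 were. For Saa2 an exact two-sided permutation test of mean log2 CPM gave an adjusted p of 0.101, and limma with voom weights gave 0.0961 with library weights and 0.0571 with group weights.

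Promoter sequence is shown for 3 acute phase genes and for Cxcl1, a chemokine gene, all of which were higher at 24 months. They were chosen after 14 motifs had been searched and the matches seen, and Fgb, fibrinogen beta (log2 fold change 1.59, SE 0.40, edgeR adjusted p = 0.0133), is outside the rule by which other genes are named. The sequences are RefSeq's for GRCm38.p6, run 5′ to 3′ in the direction of the gene, and cover 250 to 51 bases before its start. They lie at chr7:46751583-46751782 on the plus strand for Saa2, chr7:46715727-46715926 on the minus strand for Saa3, chr3:83049914-83050113 on the minus strand for Fgb and chr5:90890995-90891194 on the plus strand for Cxcl1. No GENCODE exon lies in these windows. Capitals mark matches, on either strand, to TTGCNNAA in the first 3 sequences and, in Cxcl1, to the NF-κB motif of GGG and TTTCC with 2 free bases between them. C/EBP factors are known to bind sites of the first kind.
Saa2: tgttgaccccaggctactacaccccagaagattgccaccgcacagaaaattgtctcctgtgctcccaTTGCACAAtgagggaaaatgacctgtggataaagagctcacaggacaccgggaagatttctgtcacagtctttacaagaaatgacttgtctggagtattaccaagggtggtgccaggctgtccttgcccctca
Saa3: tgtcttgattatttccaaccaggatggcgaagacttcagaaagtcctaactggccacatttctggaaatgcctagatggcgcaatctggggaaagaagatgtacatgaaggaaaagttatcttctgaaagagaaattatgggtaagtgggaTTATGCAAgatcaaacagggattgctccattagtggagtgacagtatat
Fgb: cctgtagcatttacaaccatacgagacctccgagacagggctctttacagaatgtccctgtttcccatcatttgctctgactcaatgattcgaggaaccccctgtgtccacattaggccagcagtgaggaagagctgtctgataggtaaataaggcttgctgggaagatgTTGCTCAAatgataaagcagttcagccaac
Cxcl1: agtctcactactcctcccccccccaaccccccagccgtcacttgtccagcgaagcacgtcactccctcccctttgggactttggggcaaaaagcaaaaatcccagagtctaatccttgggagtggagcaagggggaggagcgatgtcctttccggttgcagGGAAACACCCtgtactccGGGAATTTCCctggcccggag
The match lies 183 to 176 bases before the start in Saa2, 99 to 92 in Saa3 and 80 to 73 in Fgb, and the pair in Cxcl1 lies at 89 to 80 and 71 to 62. TTGCNNAA was found in 8 of the 16 higher acute phase genes that have a window (Cp, Fga, Fgb, Hpx, Lcn2, Saa2, Saa3 and Steap4) and in 8.11% of 32851 windows over all genes. The NF-κB motif was found in 1 of the 16 and in 1.05% of windows. TTCNNNGAA was found in 6 of the 16 and in 5.76% of windows, TTCCNGGAA, a narrower form of it, in 2 and in 0.697%, and TTNCNNNAA in 10 and in 28.5%. A looser form of the NF-κB motif, GGG and CC with 5 free bases between them, was found in 6 and in 37.2%. The other motifs, found in 0 of the 16, were GGGANTTCC in 0.959% of windows, the NF-κB motif with AC as its free bases in 0.113%, CACGTG in 4.34%, TTANNTAA in 4.58%, TTANGTAA in 1.76%, TTATGTAA in 0.658%, TTACGTAA in 0.0731% and the ROR element in 0.00913%. TTATGTAA and TTACGTAA are each a form of TTANGTAA, which is itself a form of TTANNTAA. These are letter matches only. A gene was counted if any of its windows held the motif, whereas the percentages are of single windows, so the 2 are not on the same footing.

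Neutrophil genes were higher in 7 of 8 genes tested of 18 listed, with 0 lower and a median log2 fold change of 3.32. S100a8, which forms the antimicrobial protein calprotectin with S100a9, had 1.27, 7.61 and 114.4 CPM at 24 months and 0.280, 0.836 and 1.07 CPM at 6 months (log2 fold change 5.50, SE 0.98, edgeR adjusted p = 0.00444). Aged 1 and aged 4 held 104.6 and 114.4 CPM of it, and yet all 8 aged livers, down to 1.27 CPM in aged 6, were above all young ones. S100a9 was likewise higher in every aged liver (log2 fold change 5.37, SE 0.96, edgeR adjusted p = 0.00444). Ngp, a granule protein of developing neutrophils, had 0.0848, 4.53 and 147 CPM at 24 months and 0, 0.255 and 0.997 CPM at 6 months (log2 fold change 6.84, SE 1.38, edgeR adjusted p = 0.00564). Without aged 4 the log2 fold changes were 4.83 for S100a8, 4.69 for S100a9 and 5.88 for Ngp. The receptors Csf3r (log2 fold change 2.04, SE 0.38, edgeR adjusted p = 0.00489) and Cxcr2 (log2 fold change 2.996, SE 0.58, edgeR adjusted p = 0.00517) rose as well, each above the highest young liver in 7 aged livers. Summed over the list, levels were 10.9, 75.04 and 828 CPM at 24 months and 3.97, 9.05 and 11.7 CPM at 6 months. In bulk tissue, more cells of a type and more RNA per cell cannot be told apart.

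Among 22 Kupffer cell and macrophage genes tested of 25 listed, 14 were higher and 0 lower, with a median log2 fold change of 1.13. Marco, a scavenger receptor, had 2.63, 48.0 and 253 CPM at 24 months and 1.51, 4.08 and 13.7 CPM at 6 months (log2 fold change 3.75, SE 0.84, edgeR adjusted p = 0.00845), and was 3.15 on the log2 scale without aged 1. Ccr2, the receptor that brings monocytes out of the blood, had 3.52, 9.32 and 22.001 CPM at 24 months and 2.25, 2.91 and 5.04 CPM at 6 months (log2 fold change 1.86, SE 0.36, edgeR adjusted p = 0.00517). Itgam (log2 fold change 2.45, SE 0.52, edgeR adjusted p = 0.007) and the complement gene C1qa (log2 fold change 1.27, SE 0.33, edgeR adjusted p = 0.0158) were higher as well. Mean log2 CPM of the list was 5.37, 5.38 and 5.58 in aged 1, 4 and 7, and at 3.38 to 4.37 in the other 5 aged livers against 2.84 to 4.10 in young ones. The count of higher genes fell to 5 without aged 1, to 7 without aged 4 or aged 7, to 3 without aged 1 and 4, and to 0 without aged 1, 4, 5 and 7. It was also 7 or 8 without any one of young 1, 4, 5, 6, 7 and 8, and 4 with libraries of a shared title number summed. Kupffer cell sums overlapped widely, at 499.7, 1009.7 and 3342 CPM at 24 months and 449.5, 809 and 1051 CPM at 6 months.

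B cell and plasma cell genes were higher for 9 of 10 tested (23 listed) and lower for 0, with a median log2 fold change of 2.87. Ms4a1, which encodes the B cell surface protein CD20, had 1.01, 3.11 and 63.3 CPM at 24 months and 0.409, 0.805 and 2.08 CPM at 6 months (log2 fold change 3.62, SE 0.79, edgeR adjusted p = 0.00757). Aged 7 held the 63.3 CPM, and aged 8 lay within the young range. Cd22 (log2 fold change 2.20, SE 0.42, edgeR adjusted p = 0.00517), a partner of the B cell receptor, and Pou2af1 (log2 fold change 2.84, SE 0.62, edgeR adjusted p = 0.00783), a B cell coactivator, rose too. Without aged 7 these changes were 2.18 for Ms4a1 and 2.18 for Pou2af1. Of the list, 4 were higher when aged 1, 4, 5 and 7 were left out. Immunoglobulin genes lie outside the lines of the count table used here. In the authors' deposited table, Ighm was higher at 24 months in female controls (log2 fold change 3.32, adjusted p = 5.1e-05), as was Igkc (log2 fold change 3.70, adjusted p = 0.000265).

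T cell and NK cell genes were higher for 7 of 13 tested (29 listed) and lower for 0, with a median log2 fold change of 1.48. By sign, 11 of the 13 were higher. In edgeR 1 was lower without any one of aged 5, 7 and 8 and young 2, and 2 with all female libraries. DESeq2 and voom library weights called 1 lower, and voom group weights 2. In the authors' deposited table for females 7 of 18 were higher and 2 lower. The list mean of aged 3 was below the young range (0.001 against 0.27 to 1.01), and 5 aged livers were above it. Ccl5, a chemokine of activated T and NK cells, had 0.194, 1.93 and 14.95 CPM at 24 months and 0.168, 0.427 and 0.665 CPM at 6 months (log2 fold change 3.06, SE 0.66, edgeR adjusted p = 0.00719). Cd8a, which marks cytotoxic T cells, had 0.233, 1.42 and 10.7 CPM at 24 months and 0.107, 0.226 and 0.864 CPM at 6 months (log2 fold change 2.99, SE 0.66, edgeR adjusted p = 0.0078). Cd3g, a chain of the T cell receptor complex, had 0.271, 2.13 and 7.52 CPM at 24 months and 0.255, 0.585 and 0.931 CPM at 6 months (log2 fold change 2.03, SE 0.50, edgeR adjusted p = 0.0126). Lck, the kinase of that complex, rose too (log2 fold change 1.48, SE 0.39, edgeR adjusted p = 0.0164). Without aged 7 the log2 fold change of Ccl5 was 2.16, and without aged 1 that of Cd8a was 2.23. Summed levels of the list overlapped, at 37.8, 69.9 and 131 CPM at 24 months and 54.8, 62.3 and 82.9 CPM at 6 months. Without aged 1, 4, 5 and 7, 0 genes were called higher and 1 lower.

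All 7 MHC class II genes tested of 10 listed, which present peptides to helper T cells, were higher at 24 months, with a median log2 fold change of 1.64. H2-DMb2, which helps load peptides, had 2.13, 4.95 and 27.1 CPM at 24 months and 0.766, 1.22 and 3.70 CPM at 6 months (log2 fold change 2.13, SE 0.49, edgeR adjusted p = 0.00955), and without aged 7 its change was 1.44. H2-Eb1, a chain of the class II molecule itself, had 6.17, 41.9 and 194 CPM at 24 months and 6.90, 15.4 and 28.1 CPM at 6 months (log2 fold change 1.90, SE 0.51, edgeR adjusted p = 0.0192). Cd74, its chaperone, had 25.2, 174 and 738 CPM at 24 months and 52.4, 82.1 and 112.7 CPM at 6 months (log2 fold change 1.65, SE 0.45, edgeR adjusted p = 0.0197). Aged 3 was below the young range for both, and 6 and 7 aged livers were above it. The count fell to 4 without aged 7, to 2 without aged 1 and 4, to 1 in limma with voom weights and to 0 without aged 1, 4, 5 and 7. It fell to 2 with libraries of a shared title number summed. Of the 10 tested class I presentation genes, 4 were higher and 0 lower, H2-Q4 among them (log2 fold change 0.92, SE 0.19, edgeR adjusted p = 0.00566). B cells, macrophages and dendritic cells all carry class II genes, and the 7 dendritic cell genes tested gave 3 higher and 0 lower; their part in the class II change was not tested.

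Interferon response genes were mostly not called, with 5 of 35 tested (40 listed) higher, against 10.9% over all genes tested. Of the list 0 were lower, and the median log2 fold change was 0.54. Stat2, a transcription factor of the type I interferon pathway, was nevertheless higher in all 8 aged livers, with 76.7, 97.6 and 127 CPM at 24 months and 46.8, 65.2 and 75.1 CPM at 6 months (log2 fold change 0.64, SE 0.12, edgeR adjusted p = 0.00488). Zbp1, a nucleic acid sensor, had 10.2, 25.1 and 71.2 CPM at 24 months and 4.90, 7.91 and 12.4 CPM at 6 months (log2 fold change 1.76, SE 0.35, edgeR adjusted p = 0.00539). Gbp2 had 10.5, 22.6 and 96.7 CPM at 24 months and 4.90, 10.5 and 15.8 CPM at 6 months (log2 fold change 1.62, SE 0.40, edgeR adjusted p = 0.0133). Aged 5 was lowest of all 16 livers for the list mean at 3.22. The count was 13 without aged 5, 3 without aged 7 or without any one of young 1, 4, 6, 7 and 8, and 17 without aged 1 and 5.

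Of 17 cytokine and chemokine genes tested of 28 listed, 10 were higher and 0 lower, with a median log2 fold change of 0.99. Cxcl1, which attracts neutrophils, had 4.30, 23.7 and 376 CPM at 24 months and 2.78, 3.998 and 5.98 CPM at 6 months (log2 fold change 4.41, SE 0.82, edgeR adjusted p = 0.00489), and was highest in aged 1 and aged 5, the 2 livers with the highest acute phase means. Cxcl13, which attracts B cells, had 0.310, 13.5 and 325 CPM at 24 months and 0.615, 1.83 and 2.22 CPM at 6 months (log2 fold change 5.13, SE 1.08, edgeR adjusted p = 0.00689). Aged 1 supplied the 325 CPM, and without it the log2 fold changes were 3.37 for Cxcl13 and 3.52 for Cxcl1. Tnf had 0.465, 1.48 and 3.78 CPM at 24 months and 0.102, 0.260 and 0.540 CPM at 6 months (log2 fold change 2.35, SE 0.45, edgeR adjusted p = 0.00516). Ltb, lymphotoxin beta, had 0.776, 2.52 and 6.07 CPM at 24 months and 0.371, 0.551 and 1.18 CPM at 6 months (log2 fold change 2.14, SE 0.38, edgeR adjusted p = 0.00444). Cxcl14, a chemokine, had 0.467, 3.402 and 8.72 CPM at 24 months and 0.153, 0.364 and 0.656 CPM at 6 months (log2 fold change 3.08, SE 0.58, edgeR adjusted p = 0.00489). The count was 4 without aged 1, 4, 5 and 7.

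Collagen, fibrosis and stellate cell genes (33 tested of 35 listed) gave 5 higher and 0 lower, against 10.9% and 7.06% over all genes tested. Their median log2 fold change was 0.16. Col1a1 and Col3a1, the chains of fibrillar collagens, were higher, Col1a1 with 1.99, 6.04 and 10.9 CPM at 24 months and 1.66, 2.49 and 2.94 CPM at 6 months (log2 fold change 1.36, SE 0.29, edgeR adjusted p = 0.007) and Col3a1 with 30.4, 53.7 and 106.6 CPM at 24 months and 18.3, 27.4 and 39.6 CPM at 6 months (log2 fold change 0.995, SE 0.24, edgeR adjusted p = 0.0108). Vim, an intermediate filament of mesenchymal and immune cells, rose too (log2 fold change 1.28, SE 0.26, edgeR adjusted p = 0.00579). Without aged 1, 4, 5 and 7 the count was 0, and without aged 8 it was 8. Of 25 endothelial genes tested, edgeR called 0 in either direction, with 4 at an unadjusted p under 0.05, and DESeq2 called 1 lower. In edgeR 3 endothelial genes were lower without young 6, 2 without aged 2 and 1 without aged 6. Of 8 bile duct genes tested 1 was higher and 0 lower, beside the same shares over all genes tested. It was Sox9, a transcription factor, and that call was lost without aged 1 (log2 fold change 1.25, edgeR adjusted p = 0.0602).

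H19, an imprinted RNA of fetal liver, had 1.10, 19.1 and 91.7 CPM at 24 months and 0.685, 1.34 and 5.65 CPM at 6 months (log2 fold change 3.48, SE 0.75, edgeR adjusted p = 0.00727), and 2.73 without aged 4. Meg3, an imprinted RNA of another locus, went the other way, with 0.161, 0.489 and 1.004 CPM at 24 months and 1.04, 1.60 and 4.28 CPM at 6 months (log2 fold change -1.91, SE 0.35, edgeR adjusted p = 0.00481), and every aged liver was below every young one. Igf2bp2, a fetal RNA-binding protein, rose slightly (log2 fold change 0.78, SE 0.20, edgeR adjusted p = 0.0144). Over the oncofetal list, 4 of 9 tested genes were higher and 1 lower. Cell cycle genes gave 8 higher and 1 lower of 31 tested. Mki67, the proliferation marker, had 5.30, 12.3 and 59.0 CPM at 24 months and 2.26, 3.71 and 17.4 CPM at 6 months (log2 fold change 2.25, SE 0.59, edgeR adjusted p = 0.0164). Top2a, which untangles chromosomes before division, had 1.82, 4.28 and 26.2 CPM at 24 months and 0.532, 0.817 and 5.41 CPM at 6 months (log2 fold change 2.57, SE 0.66, edgeR adjusted p = 0.0151). Tk1, a thymidine kinase of S phase, was the lower one (log2 fold change -1.01, SE 0.28, edgeR adjusted p = 0.0226). The cell cycle count fell to 4 without aged 1, 4 or 7 singly, to 5 without young 1, 7 or 8 singly, and to 0 without aged 1 and 4. These 2 livers had been picked for the highest neutrophil means (4.52 and 4.61 against -1.62 to -0.04 in young livers). Cell cycle means were highest in aged 4, 7 and 1, at 2.90, 2.80 and 2.53, against 0.73 to 1.99 in young livers. The neutrophil mean of aged 7 was 1.72, below those of aged 3 and 8 (1.92 and 2.08). The part of dividing blood cells in the cell cycle result was not tested.

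Cdkn1a, the p21 inhibitor of the cell cycle and a p53 target, had 1.65, 6.37 and 121 CPM at 24 months and 0.224, 0.852 and 6.78 CPM at 6 months (log2 fold change 3.34, SE 0.91, edgeR adjusted p = 0.0198). Aged 5 supplied the highest value, and without it the change was 1.89 with an edgeR adjusted p of 0.0628. Of 26 genes tested of the p53 and senescence list, 8 were higher and 0 lower, 3 without aged 5 and 0 without aged 1 and 5. Single removal of aged 1 or of young 1, 4, 5, 7 or 8 left 4, and that of aged 7 or young 6 left 5. Summing libraries of a shared title number left 1. Gadd45g, a stress-induced growth arrest gene, had 1.65, 4.95 and 30.5 CPM at 24 months and 0.816, 1.16 and 5.40 CPM at 6 months (log2 fold change 2.42, SE 0.63, edgeR adjusted p = 0.0158). Cdkn2a, which encodes p16, was too low to test, and Eda2r, a death receptor, did not pass the test (log2 fold change 0.20, SE 0.43, edgeR adjusted p = 0.789).

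**Figure D2:**
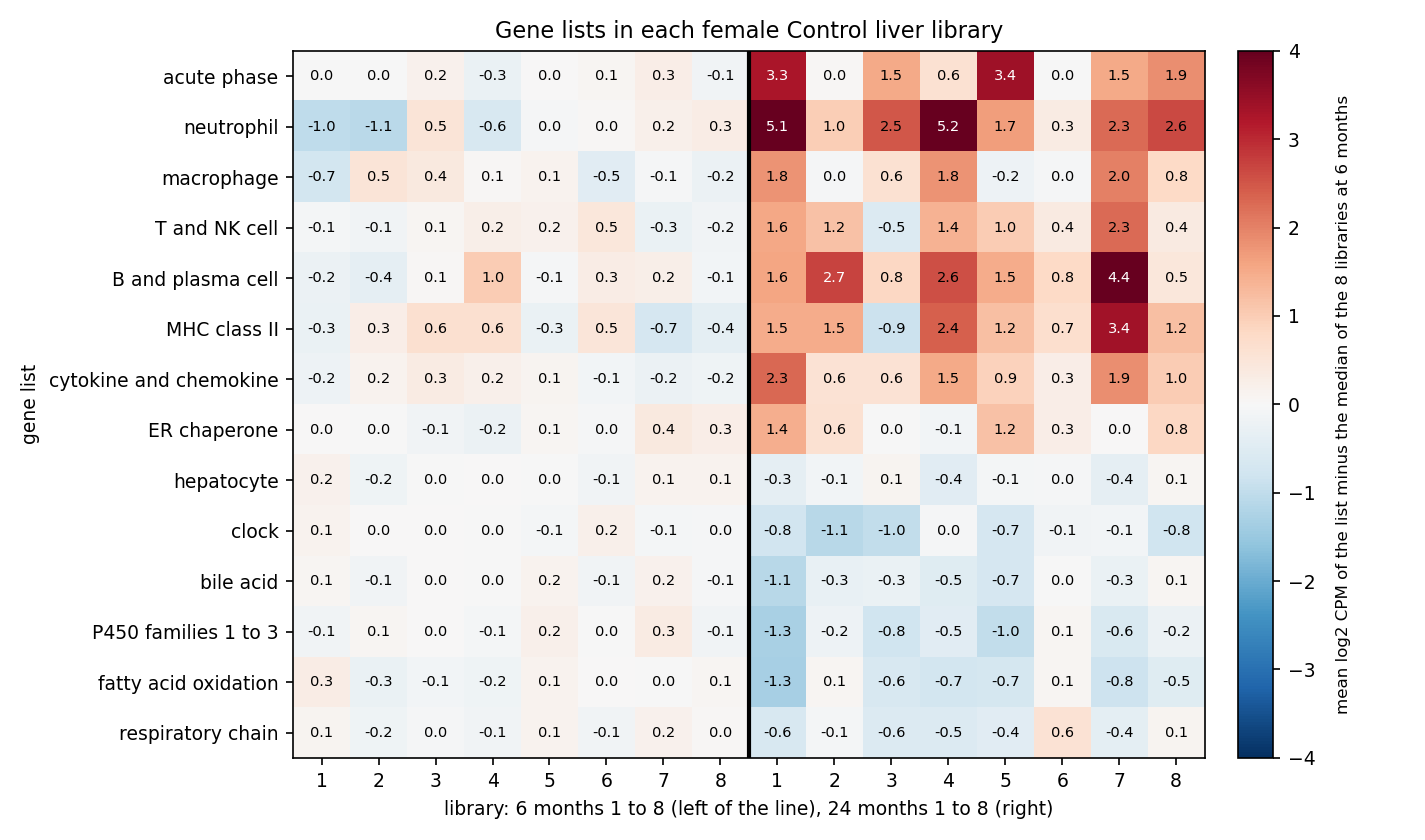
Mean log2 CPM of 14 gene lists in each library, given as the difference from the median of the 8 libraries at 6 months (colour and number). Aged 1 and 5 were highest for acute phase genes, aged 1 and 4 for neutrophil genes and aged 7 for B cell and MHC class II genes, while aged 6 stayed near the young libraries in most lists.

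Genes of fatty acid oxidation and PPARα targets, which hepatocytes use in a fast, were lower for 6 of 27 tested (30 listed) and higher for 0, with a median log2 fold change of -0.43. Ehhadh, a peroxisomal enzyme, had 243, 731 and 1646 CPM at 24 months and 1279, 1815 and 2304 CPM at 6 months (log2 fold change -1.23, SE 0.34, edgeR adjusted p = 0.0201). Ppara, the fasting receptor itself, had 101.9, 252 and 324 CPM at 24 months and 271, 383 and 484 CPM at 6 months (log2 fold change -0.65, SE 0.18, edgeR adjusted p = 0.0212). Cpt1a, the entry step of mitochondria, had 822, 939 and 1083 CPM at 24 months and 908, 1257 and 1534 CPM at 6 months (log2 fold change -0.41, SE 0.12, edgeR adjusted p = 0.0236). Vnn1 fell too (log2 fold change -0.99, SE 0.27, edgeR adjusted p = 0.0212). Aged 2 and aged 6 held list means of 8.88 and 8.87, within the young range of 8.54 to 9.09, and the other 6 aged livers were below it. The count was 16 without aged 6, 11 without aged 2, 3 without young 1 and 1 without aged 1, 4, 5 and 7. With libraries of a shared title number summed it was also 1. Cpt1a was no longer called without young 1 or without young 8. Over 72 respiratory chain genes tested, 3 were lower and 0 higher, against 7.06% lower and 10.9% higher over all genes tested. The lower ones were Sdha, Sdhd and Ndufs1 (log2 fold changes -0.49, -0.53 and -0.53), and 24 were lower without aged 6 and 5 without aged 8.

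Fat synthesis genes gave 4 lower and 1 higher of 22 tested. Gpam, the first enzyme of glycerolipid synthesis, had 119.4, 160.5 and 229 CPM at 24 months and 214, 251 and 303 CPM at 6 months (log2 fold change -0.62, SE 0.12, edgeR adjusted p = 0.00505). Dgat2, the last step of triglyceride synthesis, had 229, 433 and 537 CPM at 24 months and 504, 591 and 703 CPM at 6 months (log2 fold change -0.52, SE 0.15, edgeR adjusted p = 0.0219). The desaturase Fads1 fell as well (log2 fold change -0.63, SE 0.19, edgeR adjusted p = 0.0288). Its call, but not its direction, was lost without aged 1, young 1 or young 5, at -0.56, -0.58 and -0.60. Pnpla3, a lipid droplet hydrolase, was the higher one, with 2.37, 4.86 and 7.34 CPM at 24 months and 1.03, 1.53 and 3.19 CPM at 6 months (log2 fold change 1.32, SE 0.30, edgeR adjusted p = 0.0093). Without aged 1 the count of lower genes was 2, and with libraries of a shared title number summed it was 1. Fasn, the fatty acid synthase, and its activator Srebf1 did not pass the test, with log2 fold changes of 0.14 and 0.14 (SE 0.192 and 0.211). Lipid droplet genes, a separate list, gave 3 higher and 1 lower of 19 tested (22 listed), with a median log2 fold change of -0.23. Higher ones numbered 1 without any one of aged 1 and 7 and young 1, 3, 5, 6, 7 and 8. Lower ones numbered 4 without aged 6. Of that list, Pparg, a fat storage receptor, rose in aged livers with 11.5, 16.1 and 23.7 CPM at 24 months and 6.40, 8.58 and 13.5 CPM at 6 months (log2 fold change 0.85, SE 0.17, edgeR adjusted p = 0.00579). Fitm2, which buds lipid droplets, fell, and every aged liver was below every young one, with 39.3, 57.7 and 74.1 CPM at 24 months and 74.5, 89.3 and 111 CPM at 6 months (log2 fold change -0.66, SE 0.14, edgeR adjusted p = 0.00642).

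In glucose metabolism, 3 of 13 genes tested were lower and 1 higher. Gys2, liver glycogen synthase, had 67.4, 171 and 272 CPM at 24 months and 238, 299 and 617 CPM at 6 months (log2 fold change -1.13, SE 0.27, edgeR adjusted p = 0.012). Pck1, a rate-controlling enzyme of glucose production, had 1277, 3135 and 3957 CPM at 24 months and 2916, 4723 and 7670.3 CPM at 6 months (log2 fold change -0.76, SE 0.22, edgeR adjusted p = 0.0277), and was no longer called without young 1, 3 or 8. Pfkl, a glycolysis enzyme, rose (log2 fold change 0.63, SE 0.13, edgeR adjusted p = 0.007). Without aged 5, 5 genes of the list were lower. Of 39 genes of amino acid breakdown and the urea cycle, 8 were lower and 1 higher, with a median log2 fold change of -0.29. Hpd, an enzyme of tyrosine breakdown, had 973, 1569.7 and 2718 CPM at 24 months and 2461, 3329.6 and 3827 CPM at 6 months (log2 fold change -0.94, SE 0.21, edgeR adjusted p = 0.00783). Prodh, which oxidises proline, and Dbt, a subunit of the branched-chain ketoacid dehydrogenase, fell too (-0.99 and -0.53 on the log2 scale, edgeR adjusted p = 0.00869 and 0.00909). The count of lower genes was 4 without aged 1, 4, 5 and 7, and that of higher genes was 3 without aged 4 and 2 without young 4.

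Bile acid genes were lower for 9 and higher for 2 of 28 tested, with a median log2 fold change of -0.38. The falls covered uptake from blood and export to bile. Slc10a1, the main uptake carrier NTCP, had 252, 448 and 645 CPM at 24 months and 592, 747 and 867 CPM at 6 months (log2 fold change -0.76, SE 0.16, edgeR adjusted p = 0.00732). Slco1a1, an organic anion carrier, had 1.62, 9.20 and 30.4 CPM at 24 months and 16.6, 62.8 and 139 CPM at 6 months (log2 fold change -2.56, SE 0.53, edgeR adjusted p = 0.00602). Slco1b2, a related carrier, had 858, 1236 and 1635 CPM at 24 months and 1587, 2009.7 and 3224 CPM at 6 months (log2 fold change -0.83, SE 0.18, edgeR adjusted p = 0.0075). Abcc2, the export pump MRP2, had 518, 815 and 995 CPM at 24 months and 1043, 1170.4 and 1557 CPM at 6 months (log2 fold change -0.60, SE 0.14, edgeR adjusted p = 0.00873) and did not overlap between the ages. The 2 higher genes were Abcc4, a pump back into blood (log2 fold change 0.96, SE 0.28, edgeR adjusted p = 0.0258), which was no longer called without young 1, 5 or 8, and Cyp2c70, which makes muricholic acids (log2 fold change 0.66, SE 0.19, edgeR adjusted p = 0.0235). Cyp7a1, which catalyses the first and rate-limiting step from cholesterol to bile acids, did not pass the test (log2 fold change -0.35, SE 0.59, edgeR adjusted p = 0.721). It had 8.30, 273 and 507 CPM at 24 months and 127, 316 and 468 CPM at 6 months, and the lowest values were those of aged 5, aged 2 and aged 1. The count of lower genes was 3 without aged 1, 4, 5 and 7.

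Of 33 genes of P450 families 1 to 3 tested, 8 were lower and 2 higher, and the median log2 fold change was -0.53. Cyp2e1, which metabolises ethanol, was among the most abundant, with 3836, 5955 and 10149 CPM at 24 months and 10637, 13053 and 15977 CPM at 6 months (log2 fold change -1.08, SE 0.21, edgeR adjusted p = 0.00538). All 8 aged livers were below all young ones. Cyp2c50 had 148, 339 and 611 CPM at 24 months and 389, 647 and 1012 CPM at 6 months (log2 fold change -0.88, SE 0.23, edgeR adjusted p = 0.017), although members of this subfamily are close in sequence and reads may have been split between them. Cyp2f2, a gene of hepatocytes around the portal vein, had 16.6, 70.0 and 266 CPM at 24 months and 164, 215 and 338 CPM at 6 months (log2 fold change -1.501, SE 0.44, edgeR adjusted p = 0.0278). Slc13a3, a dicarboxylate carrier on the list of hepatocytes around the central vein, rose, with 35.7, 132 and 157 CPM at 24 months and 23.2, 35.8 and 50.5 CPM at 6 months (log2 fold change 1.70, SE 0.26, edgeR adjusted p = 0.00199), whereas Slc1a2, a glutamate carrier of the same list, fell (log2 fold change -0.88, SE 0.25, edgeR adjusted p = 0.024). That list gave 3 lower and 1 higher of 11, and the portal list 2 lower and 0 higher of 7. Without aged 6, 6 of the central list were lower. Without aged 1, 4, 5 and 7, edgeR called 0 P450 genes lower, and 1 of the 2 higher ones was lost without any one of aged 1, 2 and 5 and young 1, 3, 4, 5 and 6. The 11 hepatocyte marker genes tested had a median log2 fold change of -0.17. Of these, 1 was higher (Trf, transferrin, lost without any one of 13 libraries) and 0 lower. Their mean log2 CPM was 11.34 to 11.89 in aged and 11.62 to 11.94 in young livers. Aged 1, 4 and 7 were below every young liver, at 11.44, 11.34 and 11.42. The same livers had the highest macrophage list means. The part of immune cell RNA in the falls given here was not tested.

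Glutathione transferases and NRF2 targets moved both ways, with 5 higher and 2 lower of 21 tested. Hmox1, which breaks down haem, had 14.6, 37.0 and 122.4 CPM at 24 months and 8.11, 13.5 and 21.6 CPM at 6 months (log2 fold change 1.90, SE 0.39, edgeR adjusted p = 0.00566). Gstm3 rose (log2 fold change 1.86, SE 0.46, edgeR adjusted p = 0.0124) and Gstt3 fell (log2 fold change -1.22, SE 0.33, edgeR adjusted p = 0.0184). Without young 1, 5 or 8 singly, 3 of the list were higher, and without aged 3, young 1 or young 8 singly, 1 was lower. Chaperones of the endoplasmic reticulum gave 9 higher and 0 lower of 24 tested, with a median log2 fold change of 0.47. Sdf2l1 had 6.18, 13.2 and 70.5 CPM at 24 months and 3.15, 5.10 and 9.21 CPM at 6 months (log2 fold change 2.17, SE 0.47, edgeR adjusted p = 0.00737). Manf had 29.5, 70.0 and 194 CPM at 24 months and 18.9, 25.2 and 46.1 CPM at 6 months (log2 fold change 1.59, SE 0.38, edgeR adjusted p = 0.0109); both are made when unfolded proteins gather. Both were highest in aged 1, 5 and 8. That count was 4 without aged 1, young 1, young 4 or young 5, and 5 without aged 5 or young 3. With libraries of a shared title number summed it was 3. Among integrated stress response genes, 7 were higher and 2 lower of 29. Phgdh, the first enzyme of serine synthesis, had 0.545, 1.46 and 15.3 CPM at 24 months and 0.0510, 0.215 and 0.572 CPM at 6 months (log2 fold change 3.63, SE 0.74, edgeR adjusted p = 0.00579), and 2.76 without aged 3. Mthfd2, a mitochondrial folate enzyme, had 0.466, 1.68 and 5.04 CPM at 24 months and 0.199, 0.364 and 0.940 CPM at 6 months (log2 fold change 2.35, SE 0.46, edgeR adjusted p = 0.00517). Slc7a1, an arginine carrier, had 2.67, 4.54 and 8.40 CPM at 24 months and 0.816, 1.86 and 2.51 CPM at 6 months (log2 fold change 1.404, SE 0.27, edgeR adjusted p = 0.00505). Trib3 (log2 fold change -1.49, SE 0.36, edgeR adjusted p = 0.0118) and Vldlr (log2 fold change -1.69, SE 0.36, edgeR adjusted p = 0.00705) fell. Fgf21, a stress and fasting hormone, did not pass the test, at 5.23, 14.2 and 122.3 CPM at 24 months and 6.79, 13.7 and 27.3 CPM at 6 months (log2 fold change 0.996, SE 0.57, edgeR adjusted p = 0.237), and was 0.25 without aged 3.

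Of 13 tested genes known for higher levels in male liver, 3 fell and 1 rose, and of 15 known for higher levels in female liver 2 fell and 0 rose, against 7.06% lower and 10.9% higher over all genes tested. The rise was lost without any one of aged 1, 3 and 4 and young 1, 5, 6, 7 and 8, and without aged 2 there were 2 rises. Hsd3b5, a steroid enzyme of male liver, had 0.0539, 0.315 and 0.740 CPM at 24 months and 0.783, 1.27 and 6.23 CPM at 6 months (log2 fold change -2.55, SE 0.54, edgeR adjusted p = 0.0068). Susd4 had 0.161, 0.335 and 0.808 CPM at 24 months and 0.465, 1.64 and 6.91 CPM at 6 months (log2 fold change -2.59, SE 0.48, edgeR adjusted p = 0.00489). Elovl3 fell too (log2 fold change -1.70, SE 0.55, edgeR adjusted p = 0.0398), but the call was lost without any one of 9 libraries. The 2 female-biased genes, Cyp17a1 (log2 fold change -1.21, SE 0.39, edgeR adjusted p = 0.0403) and Cyp2b9 (log2 fold change -0.83, SE 0.26, edgeR adjusted p = 0.0331), were lost without any one of 11 and 6 libraries. Of 20 genes of the growth hormone, IGF and steroid receptor list, 2 fell and 0 rose, beside the same shares over all genes tested. Insr, the insulin receptor, was one of them (log2 fold change -0.26, SE 0.09, edgeR adjusted p = 0.0411), and its call was lost without any one of 13 libraries. Igf1 stood at 796, 855 and 1744 CPM at 24 months and 717, 864 and 1506 CPM at 6 months (log2 fold change 0.04, SE 0.196), and Esr1, the oestrogen receptor, at 45.7, 88.7 and 136 CPM at 24 months and 66.9, 89.2 and 111.8 CPM at 6 months (log2 fold change 0.01, SE 0.186). Neither passed the test, and neither did Lepr (log2 fold change -0.35, SE 0.40, edgeR adjusted p = 0.59) or Ppargc1a (log2 fold change -0.78, SE 0.28, edgeR adjusted p = 0.062). The fall of Ppargc1a did pass in 9 of 29 alternatives, among them DESeq2 (adjusted p = 0.0363), edgeR without aged 5 (-1.04, adjusted p = 0.00994) and edgeR without aged 7 (-0.89, adjusted p = 0.0496). Among the largest falls were also Nox4, an oxidase that makes hydrogen peroxide (log2 fold change -2.74, SE 0.68, edgeR adjusted p = 0.0124), -2.01 without young 3, and Sult5a1, a sulfotransferase (log2 fold change -2.34, SE 0.63, edgeR adjusted p = 0.0184), -3.25 without aged 7. Of 4 red cell genes tested, Hbb-bs, a beta globin, fell (log2 fold change -1.35, SE 0.34, edgeR adjusted p = 0.014).

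Clock genes divided the aged livers. Of 21 tested of 22 listed, 4 were higher and 5 lower, with a median log2 fold change of -0.58. Arntl, the activator of the loop, had 2.97, 12.3 and 42.9 CPM at 24 months and 1.48, 3.08 and 6.09 CPM at 6 months (log2 fold change 2.39, SE 0.56, edgeR adjusted p = 0.0103). Its values were 42.9, 42.2, 30.2 and 18.9 CPM in aged 5, 2, 3 and 8, and 2.97 to 5.73 in the other 4, which lay within the young range. Npas2, a partner of Arntl, had 0.212, 1.45 and 12.8 CPM at 24 months and 0.116, 0.349 and 0.731 CPM at 6 months (log2 fold change 3.17, SE 0.79, edgeR adjusted p = 0.0135), was highest in the same 4 livers, and was 2.48 without aged 2. Arntl and Npas2 were both no longer called in limma with voom group weights or in the exact permutation test. Usp2, a clock output gene, had 1.37, 4.66 and 31.6 CPM at 24 months and 36.0, 41.8 and 56.5 CPM at 6 months (log2 fold change -1.81, SE 0.57, edgeR adjusted p = 0.0369). Here aged 4, 6 and 7 held 31.6, 23.1 and 30.6 CPM, and the other 5 held 1.37 to 5.28, so that every aged liver was below every young one. Leaving out single libraries raised the adjusted p of Usp2 past 0.05 in 12 of 16 cases.

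Tef, a transcription factor driven by the clock, had 54.8, 162 and 332 CPM at 24 months and 303, 370.3 and 469.5 CPM at 6 months (log2 fold change -1.01, SE 0.29, edgeR adjusted p = 0.0252), with aged 4 and 6 in the young range; without aged 3 its adjusted p was 0.0504 in edgeR. Hlf (log2 fold change -0.77, SE 0.17, edgeR adjusted p = 0.00819) and Nr1d2, a repressor of Arntl (log2 fold change -0.74, SE 0.18, edgeR adjusted p = 0.013), fell as well. Noct, a clock-driven phosphatase, rose, with 256, 369.6 and 814 CPM at 24 months and 85.7, 154 and 373 CPM at 6 months (log2 fold change 1.29, SE 0.30, edgeR adjusted p = 0.0093). Nfil3, a repressor of clock outputs, had 10.2, 37.9 and 85.8 CPM at 24 months and 12.6, 14.4 and 19.3 CPM at 6 months (log2 fold change 1.35, SE 0.34, edgeR adjusted p = 0.0132). Per2 did not pass the edgeR test of means (log2 fold change -0.67, SE 0.30, edgeR adjusted p = 0.135), though it did in limma with either kind of voom weights and in edgeR without aged 1, 4, 5 and 7. Its values were 66.1 to 77.3 CPM in aged 4, 6 and 7 and 14.1 to 48.2 in the other aged livers, against 59.2 to 80.1 in young livers. The count of lower clock genes was 3 without aged 1, 3 or 8 or without any one young library, 8 without aged 6, and 12 in limma with library weights. CACGTG, the E-box that CLOCK and ARNTL bind, was found in 5 of the 17 clock genes with a promoter window (Bhlhe41, Ciart, Cry1, Per1 and Tef) and in 4.34% of all windows, as letter matches only. It was 1 of the 14 motifs searched, and among the others GGG and CC with 5 free bases between them were in 13 of the 17, TTNCNNNAA in 3, TTCNNNGAA and TTANNTAA in 2 each, and TTGCNNAA, TTANGTAA, TTATGTAA and GGGANTTCC in 1 each. The NF-κB motif in both its narrower forms, TTCCNGGAA, TTACGTAA and the ROR element were in 0. Clock genes too were counted by any of their windows, whereas the percentage is of single windows. Hour of collection within and between the groups is not in the sources used here, so its part in these values was not tested.

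**Figure D3:**
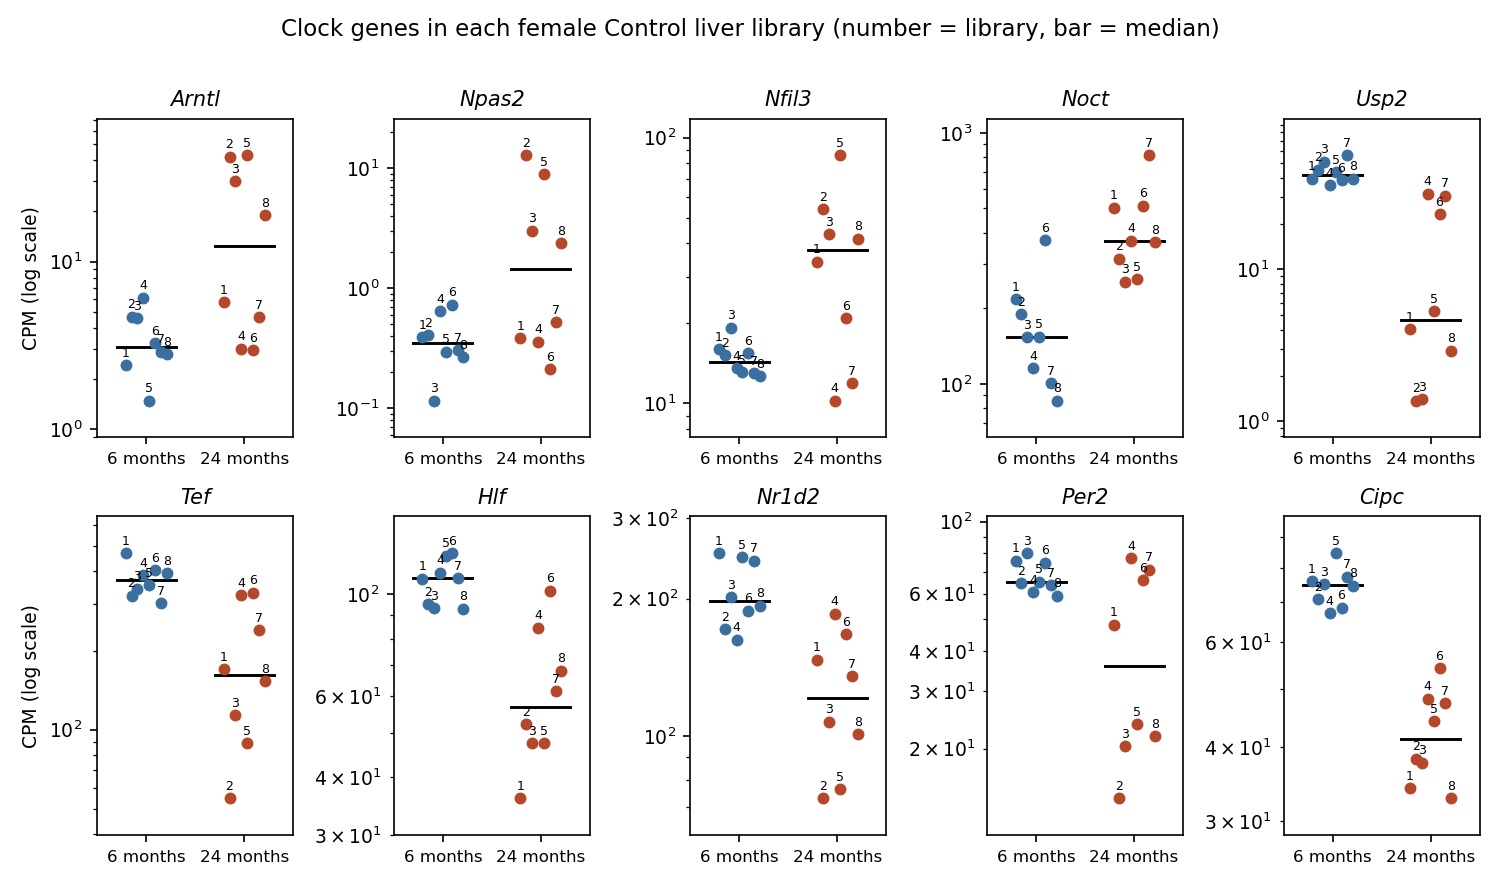
CPM (log scale) of 10 clock genes in each library at 6 and 24 months; numbers mark libraries and bars mark medians. Young libraries lie close together, whereas aged 2, 3, 5 and 8 are high for Arntl and Npas2 and low for Usp2, Tef and Per2, and aged 4, 6 and 7 lie nearer the young libraries.

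For most genes the values were spread more widely between animals at 24 months. The SD of log2 CPM was larger in aged than in young livers for 8676 of 11937 genes (72.7%), and its median over genes was 0.351 at 24 months and 0.260 at 6 months. When each gene's deviations from its group mean were compared by limma, 68 genes (0.57%) were called more variable at 24 months and 0 (0%) at 6 months, with 2129 at an unadjusted p under 0.05. As 1 value per liver, the median absolute deviation from the group's median profile was 0.208 log2 units at 24 months and 0.153 at 6 months, and an exact two-sided permutation test of the difference gave p = 0.0755. The liver farthest from its group was aged 5 (0.320), followed by young 7 (0.272). This overall difference did not pass 0.05. Shared title numbers leave 7 units at 24 months and 5 at 6 months, and spread was not tested with those libraries summed. The part of shared numbers in the narrower young spread was therefore not tested.

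The genes with the smallest p-values for spread were Pou2f2, a B cell transcription factor, and Per2. For Pou2f2 the SD of log2 CPM was 1.26 at 24 months and 0.31 at 6 months (limma adjusted p = 0.00828), and for Per2 0.96 and 0.16 (limma adjusted p = 0.0128). Chka, choline kinase, had SDs of 1.51 and 0.32, Fpr2, a receptor of myeloid cells, 1.63 and 0.41, and Runx1, a blood cell transcription factor, 1.34 and 0.28. Wrnip1, Zeb2 and Gckr, the inhibitor of glucokinase, were more variable without a called difference in mean. Wrnip1, for example, had 24.99, 40.3 and 74.1 CPM at 24 months and 34.7, 40.4 and 48.6 CPM at 6 months, with 4 aged livers above every young one and 4 below (log2 fold change 0.12, SE 0.21, edgeR adjusted p = 0.74). Zeb2 had SDs of 0.59 and 0.12, and Gckr 0.49 and 0.20. Of the 21 clock genes tested, 6 were called more variable in aged livers, against 0.57% of all genes, and these were Arntl, Npas2, Usp2, Per2, Wee1 and Ciart. Of 25 acute phase genes, 2 were (Saa2 and Itih4), although the SD was larger in aged livers for all 25. The count of 68 ranged from 8 without young 4 to 252 without aged 8. Without aged 1 it was 12, and with deviations taken from the median it was 13.

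**Figure D4:**
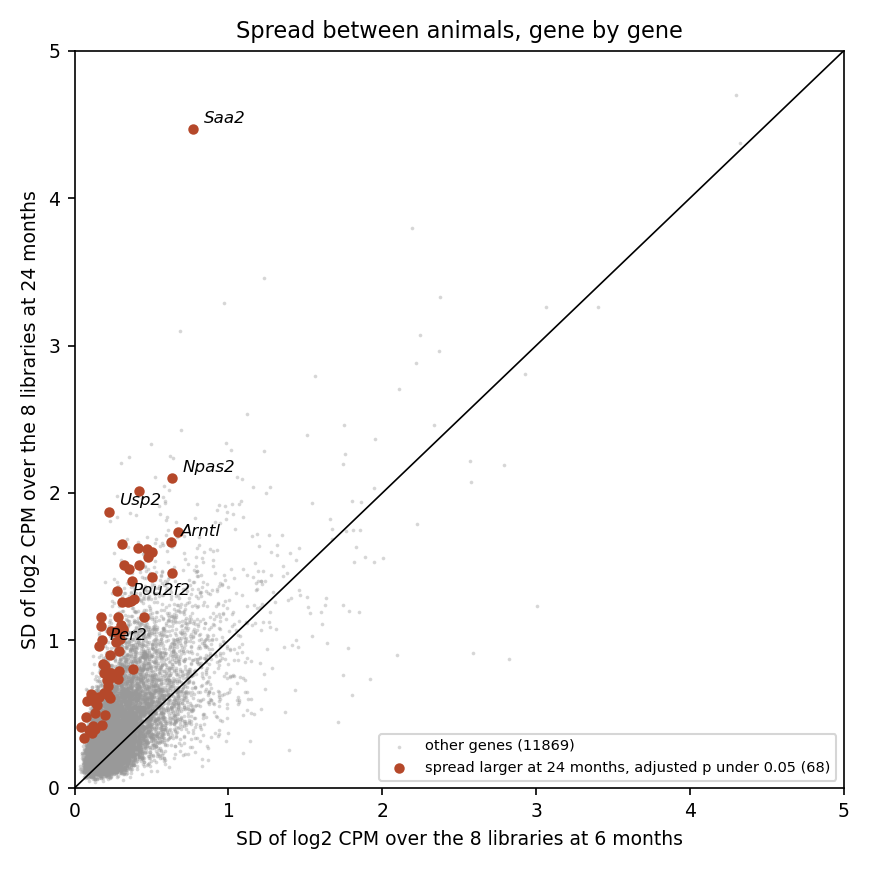
SD of log2 CPM over the 8 libraries at 24 months (vertical) against that at 6 months (horizontal) for the 11937 genes tested, with the line of equality. The 68 genes called more variable at 24 months are in red, and Saa2 had the largest SD among them.

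The same age difference was measured in females on the restricted diets, which use other animals at both ages. Of 12623 genes tested, 0.974% were higher at 24 months and 50 (0.396%) lower on Low Amino Acid. With Low Isoleucine feeding 750 (5.94%) were higher and 370 (2.93%) lower, in the edgeR fit over all 47 female libraries. The Control counts in that same fit were 2065 higher and 1396 lower. It takes its spread from all 6 female groups together, which understates the error of a group that varies more than the others. In the fit on the 16 Control libraries alone the counts were 1297 and 843. The counts of the 3 diets are therefore not a test of a diet difference. The difference between the Control age change and each of the other 2 was itself called for 0 genes by edgeR (0% each), with 1260 and 1009 genes at an unadjusted p under 0.05 and smallest adjusted p of 0.496 and 0.226. DESeq2 called 0 and 9. Fold changes for the restricted diets come from that fit, and those for Control from the fit on 16 libraries. As log2 fold changes, Low Amino Acid first and Low Isoleucine second, Nebl had 2.71 and 2.71, against 3.11 on Control. Cipc had -0.70 and -0.58, against -0.82. For Saa2 the values were 6.49 and 0.22, and for Adcy1 2.77 and 2.34. Tmtc2 had -0.58 and -0.26 against -1.20 on Control, and Cd22 had 1.15 and 3.397 against 2.20. The largest gaps did not pass the adjusted test, which does not show that the diets act alike. One 6-month Low Isoleucine library labelled female held 50.8 CPM of Kdm5d against at most 0.639 in the other female libraries; the counts were also 0 without it.

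Male controls, which share no animals with the females, were read from the authors' deposited table. In it 1480 of 17757 genes (8.33%) were higher at 24 months in males and 2071 (11.7%) lower. Of 1291 genes higher in aged females here and listed in the authors' deposited table for males, 1071 (83%) were also higher in males by sign and 233 (18%) at an adjusted p under 0.05, against 50.4% and 9.47% of the 11859 genes tested here that it lists. Of 842 lower genes, 665 (79%) were lower by sign and 250 (29.7%) at an adjusted p under 0.05, against 49.6% and 13.7%. Opposite calls in the authors' deposited table numbered 34 and 15, or 2.63% and 1.78%. Across the 11859 genes, which are not independent replicates, Pearson's r between the 2 sets of log2 fold changes was 0.569.

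In the authors' deposited table for males, Nebl (log2 fold change 3.25, adjusted p = 9.94e-06), Dmrta1 (log2 fold change 2.91, adjusted p = 2.14e-06) and Nxpe5 (log2 fold change 3.02, adjusted p = 0.000724) were higher, as in females. Foxo3 (log2 fold change -0.61, adjusted p = 0.00095), Cipc (log2 fold change -0.83, adjusted p = 4.58e-05), Clmn (log2 fold change -1.04, adjusted p = 2.54e-05) and Gys2 (log2 fold change -1.63, adjusted p = 6.20e-05) were lower in the authors' deposited table. Lcn2 was higher in aged males in the authors' deposited table (log2 fold change 5.06, adjusted p = 0.00838), while Saa2 (log2 fold change 2.59, adjusted p = 0.174) and S100a8 (log2 fold change 3.32, adjusted p = 0.108) did not pass. Of 27 acute phase genes in the authors' deposited table, 12 were higher in males and 0 lower, against 22 and 0 of 27 in its female controls. Of 10 MHC class II genes 0 passed in males in the authors' deposited table, although their median log2 fold change there was 1.25, against 1.22 in its female controls. For those female controls it gives 7 of 9 MHC class II genes as higher. Of 22 T and NK cell genes 0 passed in males in the authors' deposited table, with a median of 0.83 against 1.24 in females. For B and plasma cell genes 6 of 22 were higher in males in the authors' deposited table, against 18 of 22 in its female controls. Fatty acid oxidation genes were lower in males for 13 of 30 in the authors' deposited table, with 0 higher, against 21 of 30 lower and 0 higher in its female controls. Cyp17a1 (log2 fold change 2.23, adjusted p = 0.00404), Gstt3 (log2 fold change 1.27, adjusted p = 0.00227) and Col1a1 (log2 fold change -1.33, adjusted p = 0.023) went the other way from females, and Eda2r was higher in males (log2 fold change 1.53, adjusted p = 0.0116) in the authors' deposited table. Whether the sexes differ for these genes was not tested.

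**Figure D5:**
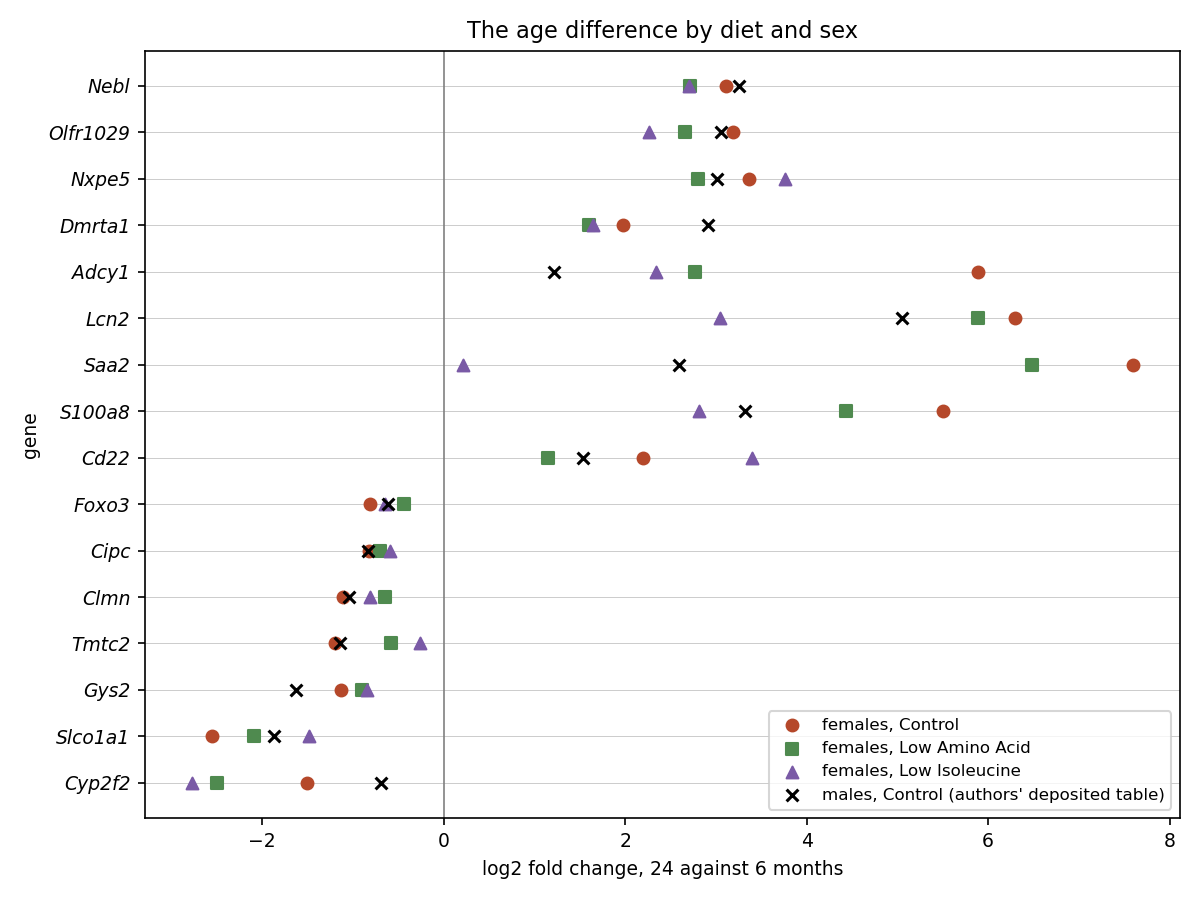
Log2 fold change between 24 and 6 months (horizontal) for 16 genes (vertical) in females on each of the 3 diets and, from the authors' deposited table, in Control males. Nebl, Nxpe5 and Olfr1029 lie between 2.26 and 3.76 in all 4 comparisons, whereas Saa2 runs from 0.22 on Low Isoleucine to 7.59 on Control.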

How the data were processed

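Polyadenylated, stranded RNA libraries were sequenced on 2 lanes that were merged before expression was estimated, per the labels' protocols. The submitters' processing notes name GRCm38.p5, edgeR, limma and R 3.4.3 without roles; the aligner was not given in the sources used here, nor was the annotation. The authors deposited estimated counts per gene, of which 17.6% of the cells used were not whole and were rounded. In the deposited count file, 17275 of 51912 lines are filled in all columns, and only these were used; 45 columns of male libraries were not used. Symbols come from GENCODE M21 (17251 identifiers matched). The authors' deposited table of comparisons gives log2 fold changes and adjusted p-values, and supplied every male value.

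Ageing was tested with edgeR 4.0.16 in R 4.3.3 (TMM scaling, filterByExpr, quasi-likelihood test, Benjamini-Hochberg adjustment, threshold 0.05) on 16 libraries of 14286620 to 27556878 counts. Spread was tested with limma 3.58.1 on absolute deviations of log2 CPM (prior count 2) from the group mean. Diet differences used all 47 female libraries. DESeq2 1.42.0, other filters and scalings, voom weights, a permutation test, summing of libraries that share a title number and leaving out each library were alternatives. Leaving out the farthest, the highest acute phase, the highest neutrophil, the 4 highest on the first component and a library with a Y-linked RNA was chosen after seeing the data. The scripts were tested on simulated data. Named genes are mainly the 10 largest changes each way at 1 CPM or more, the 6 smallest p-values each way, up to 4 called members per list and direction, a fixed set, and the 8 smallest p-values for spread; not all of them are printed. The members and lists were chosen with earlier results of these data known. Promoter windows are RefSeq's for GRCm38.p6.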

Additional observations from a re-analysis of the deposited data

Results flagged for a closer look

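In 354 groups of 8 libraries (a gene or a list mean at 1 age), the highest or lowest library was checked for a gap to its neighbour that, as a share of the range, exceeds Dixon's limit for 8 values. It did in 16 groups, and chance gives about 1 in 20. All values are log2 CPM, and none was weighed for a cause. At 24 months H2-DMb2, an MHC class II gene, was high in aged 7 (4.76, next 2.79). Aged 5 was low for Ppara, the fasting receptor (6.67, next 7.70), and high for Igf1 (10.77, next 10.12) and for the p53 and senescence list mean (3.81, next 3.15). Pck1, of glucose production, was low in aged 1 (10.32, next 11.48). The bile duct list mean was low in aged 7 (1.09, next 1.43), and the hormone receptor, growth hormone and IGF list mean was high in aged 3 (7.15, next 6.75).

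At 6 months Lck, a T cell kinase, was low in young 7 (-0.74, next 0.36). Young 3 was high for Meg3 (2.13, next 0.96) and Gadd45g (2.46, next 0.71). Young 2 was low for Ppara (8.08, next 8.53) and Cpt1a (9.83, next 10.24), and high for the integrated stress response list mean (4.06, next 3.12). Cyp17a1 was low in young 6 (5.14, next 6.57), Slc7a1 low in young 5 (-0.15, next 0.88) and Sult5a1 high in young 1 (4.20, next 3.18).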

How the results depend on the processing

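Genes higher and lower at 24 months numbered 1297 and 843. They numbered 2065 and 1396 with the spread taken from all female libraries, 713 and 477 with libraries of a shared title number summed (7 aged and 5 young units), 650 and 421 without aged 1 and 4, and 404 and 344 without aged 1, 4, 5 and 7; the last 3 hold fewer samples. With libraries so summed, higher list members numbered 16 for acute phase (20 in the main fit), 13 for neutrophils (7) and 8 for cytokines and chemokines (10). They numbered 7 for B and plasma cells (9) and 3 for T and NK cells (7). Lower members numbered 6 for bile acids (9) and 5 for P450 families (8). Leaving out 1 library gave 866 (aged 1) to 1563 (aged 6) higher and 559 (aged 1) to 1185 (aged 6) lower. Library and group weights in voom gave 1072 and 985 higher and 978 and 877 lower, 52.3% and 52.9% of calls being higher against 60.6%. Genes more variable at 24 months numbered 68, 36 with a prior count of 0.5, 13 with deviations from the median, 15 without aged 1 and 4, 39 without aged 1, 4, 5 and 7, and 8 (young 4) to 252 (aged 8) without 1 library. Those more variable at 6 months numbered 0, 0 to 5 without 1 library (5 without aged 8), 1 without aged 5 and young 7, 1 without aged 1 and 5, and 2 without aged 1, 4, 5 and 7. For Low Isoleucine, DESeq2 called an age change larger on Control for 6 genes and smaller for 3. The p of the distance test was 0.0737 to 0.0949 over its alternatives. Of 3872 alternative values of 134 genes followed, 3584 kept direction and side of the threshold, 247 no longer passed it, 13 now passed it (9 of Ppargc1a, 3 of Per2 and 1 of Wrnip1) and 28 changed sign; 14 genes had no value under the stricter filter. In the exact permutation test of mean log2 CPM, Saa2, Cxcl13, Marco, C1qa, Cd3g, Lck, H2-Eb1 and Cd74 were no longer called. The same held for Mki67, Hbb-bs, Sox9, Cyp17a1, Arntl, Npas2, Nfil3, Chka and Fpr2. Sign changes touched uncalled genes, and their cause was not tested. As log2 fold changes, Igf1 gave -0.12 to 0.16 without 1 library, -0.0034 without aged 5 and young 7, -0.095 without aged 1 and 5 and -0.21 without aged 1, 4, 5 and 7. Esr1 gave -0.10 to 0.11 without 1 library, -0.038 and -0.069 with library and group weights, -0.17 without aged 1 and 4, -0.28 without aged 1, 4, 5 and 7 and -0.057 as a difference of mean log2 CPM. Eda2r gave -0.097 to 0.63 without 1 library, -0.11 with libraries summed, -0.025 without aged 5 and young 7, -0.11 without aged 1 and 4 and -0.21 without aged 1, 4, 5 and 7. Wrnip1 gave -0.041 to 0.20 without 1 library. Without aged 1, 4, 5 and 7, Fasn gave -0.077, Zeb2 -0.013 and Gckr 0.12, and Cyp7a1 gave 0.035 without aged 1 and 5. No paired analysis was possible because the labels give the age groups no shared animal, litter or replicate number. Genes under the filter on low counts were not tested in the main fit. Without that filter edgeR tested 16125 genes and called 1384 higher and 795 lower. Higher list members then numbered 17 for neutrophils (7 in the main fit), 13 for T and NK cells (7) and 15 for cytokines and chemokines (10). For B and plasma cells they numbered 11 (9) and for macrophages 13 (14). The genes so added have low counts.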
